A study of Rattus norvegicus with 18 samples.

Results

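The apolipoproteins are the protein part of the lipoproteins that carry lipid in plasma, and most of those in plasma are made by the liver. Of 10 apolipoprotein genes chosen by name (Apoa1, Apoa2, Apoa4, Apoa5, Apob, Apoc1, Apoc2, Apoc3, Apoe and Apoh), 7 had a probe that the annotation of the array names, 1 probe each, among 22523 probes and 13337 named genes. No probe is named for Apoa1, Apoa4 or Apoc3, and these 3 genes were not analysed here. The measurements came from livers of 18 Wistar rat pups, 1 Illumina RatRef-12 expression array per pup. The groups were G1 (vehicle), G2 (0.002 mg/kg body weight of BDE-47) and G3 (0.2 mg/kg), with 3 males and 3 females in each. BDE-47 is 2,2′,4,4′-tetrabromodiphenyl ether, a brominated flame retardant. Only the dams were dosed, 3 per group, by 6 injections into the tail vein, 1 every 5 days from gestational day 15 to postnatal day 20. Every dam, those of G1 included, received the same vehicle of ethanol, Cremophor EL and water. The pups stayed with their dams until day 21 and were sacrificed on day 27, so that exposure ran through the dam. A litter gave 1 male and 1 female pup, but the labels do not say which pups were littermates. The p-values between groups, over 6 pups in each, therefore take littermates as independent, and would be larger if likeness within a litter were counted.

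Apolipoproteins give a lipoprotein its structure, act as cofactors or inhibitors of the enzymes that change its lipids, and serve as ligands for the receptors that take it up. Apob is the structural protein of very low density lipoprotein (VLDL) and low density lipoprotein, and it stays with its particle. The smaller apolipoproteins move between particles in plasma. In the rat, as in other mammals, several of their genes lie side by side in the genome.

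The values were log2 expression after the normalization of the authors. Each array ran from about 7.61 to a highest probe of 15.45 to 15.73, with a median of 7.84 to 7.85. Livers of all groups carried the hepatocyte genes: over 11 measured markers of abundant hepatocyte mRNAs, the mean in a pup was 14.73 to 14.90. Skeletal muscle markers stood apart in 1 pup, G3 replicate 2, a male, where their mean over 9 genes was 10.73 against 7.85 to 7.92 in the other pups. Its value for the muscle actin Acta1 was 13.70, and the highest of the other 17 pups was 8.91. The part of that pup in the results for G3 is given beside them. Of 6 erythroid markers measured, all were lower in G2 than in G1 by estimate (median -0.14). At an unadjusted p of 0.05 in limma 4 of them were lower, where 5.59% of all probes were, and 0 passed the adjusted p. The mean of the 6 markers in a pup was 9.41 to 9.90 in G1, 9.22 to 9.52 in G2 and 9.39 to 9.66 in G3. In RNA of a whole liver, fewer cells of a type and less RNA per cell cannot be told apart.

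In the GRCr8 assembly, Apoe, Apoc1 and Apoc2 lie within 28.4 kb of chromosome 1, at chr1:88481889-88485816, chr1:88475018-88479052 and chr1:88457397-88462365. Apoa5 lies on chromosome 8 at chr8:55446329-55460509, in a cluster of 36.6 kb with Apoa1, Apoc3 and Apoa4. The others stand alone in this list, Apob at chr6:36563704-36603300, Apoh at chr10:93841992-93855897 and Apoa2 at chr13:86176767-86178819. RefSeq start sites were at hand for 5 of the 7 measured genes. The 120 bases before the outermost start listed are shown for the 3 neighbours, since their levels are compared pup by pup, and for Apoa5, since its level varied widely. Each is written 5′ to 3′ on the strand of the gene. For Apoc1 and Apoa5 that start lies inside the annotated span of the gene. Capitals mark 2 short motifs searched on both strands, TATAAA (reverse TTTATA), the TATA box in its most common spelling, and CAAAGTCC (reverse GGACTTTG), core letters of many sites of the liver factor HNF4A.
Apoe, chr1:88485817-88485936, minus strand: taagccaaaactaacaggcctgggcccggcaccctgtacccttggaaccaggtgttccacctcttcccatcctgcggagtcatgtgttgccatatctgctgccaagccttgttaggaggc
Apoc1, chr1:88478306-88478425, minus strand: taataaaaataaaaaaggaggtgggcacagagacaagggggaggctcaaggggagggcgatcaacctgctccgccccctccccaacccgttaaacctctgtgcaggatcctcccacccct
Apoc2, chr1:88462366-88462485, minus strand: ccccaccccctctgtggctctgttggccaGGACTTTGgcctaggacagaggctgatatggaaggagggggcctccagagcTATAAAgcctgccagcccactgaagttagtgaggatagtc
Apoa5, chr8:55457751-55457870, plus strand: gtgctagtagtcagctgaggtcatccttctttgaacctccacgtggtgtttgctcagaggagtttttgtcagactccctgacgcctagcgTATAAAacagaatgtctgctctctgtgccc
TATAAA was found in the windows of Apoc2 and Apoa5, 40 and 30 bases before the start, and in none of the windows of Apoe, Apoc1 and Apoh. Among 33469 rat start sites of RefSeq, 6.66% held it in a window of this length. The 8 letters of the HNF4A core were found for Apoc2 alone, 91 bases before the start, and 0.586% of all start sites held them. Both motifs were chosen after the sequences had been seen, and a match is a description of the letters only.

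Apoh, Apoe and Apoc1 were among the brightest probes of every array. Their ranks ran from 2 to 42 of 22523 on all 18 arrays, and their values lay 0.00 to 0.36 below the highest probe of the same array. At this end the scale was narrow. The mean value was 15.59 at rank 1, 15.45 at rank 10, 15.13 at rank 50 and 14.59 at rank 100, so that the first 50 ranks covered 0.46 on the log2 scale, a fold of 1.37. Over all ranks, values of the same rank were nearly equal between arrays, with a median SD of 0.00204 and at most 0.0789. At the top they differed more, with an SD of 0.0720 at rank 2, 0.0528 at rank 20 and 0.0423 at rank 42. The SDs within groups of Apoh, Apoe and Apoc1 were 0.0841, 0.0946 and 0.0973. A value of these 3 probes therefore depended both on its rank and on the top values of its array. A move over all the ranks that they held, from 2 to 42, was worth 0.34. The spread between pups was also smaller at this end. The median SD within groups was 0.182 for probes with a mean of 13 to 14, 0.140 from 14 to 15, and 0.0953 for the 63 probes from 15 upwards. Whether the scanner had reached its limit for these probes was not tested, since raw intensities were not used here.

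**Figure D1:**
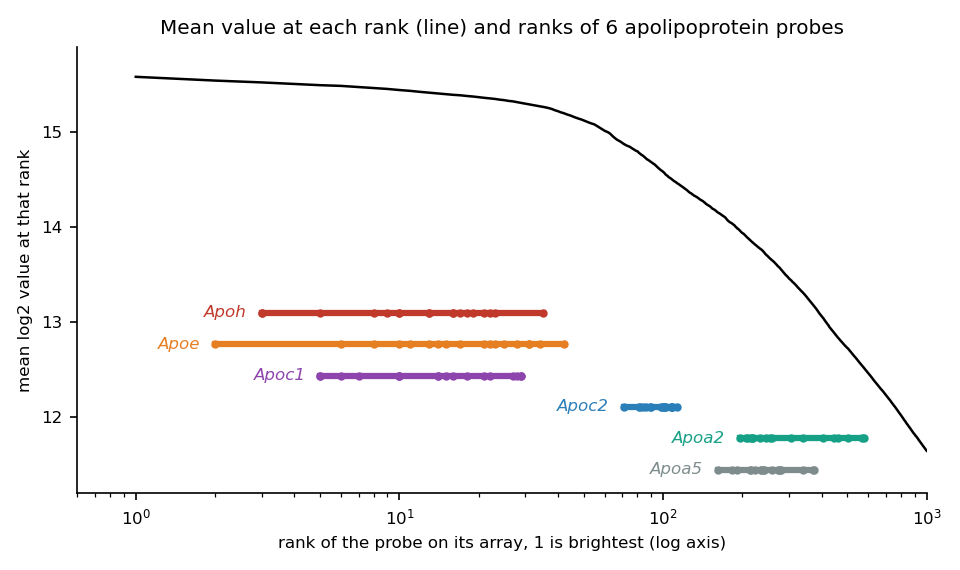
Mean log2 value at each rank over 18 arrays (black line, left axis) against rank on a log axis, where rank 1 is the brightest probe. Coloured points give the rank of each apolipoprotein on each array and bars their range (the height of a bar has no meaning). Apoh, Apoe and Apoc1 hold ranks 2 to 42, where the line is nearly flat on this log axis. Apob, at ranks of 16161 and beyond, is not drawn.

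Apoe is the ligand through which remnant lipoproteins bind the receptors of the liver that take them up. Its values in G1 ran from 15.23 to 15.53 with a median of 15.37, in G2 from 15.27 to 15.50 with a median of 15.42, and in G3 from 15.28 to 15.52 with a median of 15.39. The groups overlapped over nearly their whole range. Means were 15.37 ± 0.11, 15.41 ± 0.08 and 15.38 ± 0.09 (SD, n = 6 in each).

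Apoc1, which inhibits lipoprotein lipase, lay at the same height. It ran from 15.33 to 15.48 in G1 (median 15.40), from 15.33 to 15.61 in G2 (median 15.42) and from 15.24 to 15.56 in G3 (median 15.40). The 2 highest pups of G2, both females, were above every pup of G1, and the other 4 lay within the range of G1. Apoh, also called beta-2-glycoprotein I, a plasma protein that binds anionic phospholipids, ran from 15.36 to 15.58 in G1, 15.36 to 15.50 in G2 and 15.23 to 15.54 in G3, with medians of 15.39, 15.48 and 15.36. All groups overlapped. The highest Apoh value of G3, 15.54, was that of replicate 2, the pup with the muscle transcripts.

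Apoc2, the cofactor that lipoprotein lipase needs, ranked 71 to 113 and so lay outside the first 50 ranks on every array. Values were 14.53 to 14.86 in G1 (median 14.67), 14.45 to 14.78 in G2 (median 14.54) and 14.51 to 14.72 in G3 (median 14.59). Of the 6 pups of G2, 3 lay below all pups of G1, and the other 3 lay within the range of G1. The means were 14.68 ± 0.12, 14.59 ± 0.15 and 14.60 ± 0.09 (SD, n = 6).

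Apoa2, known in humans as the second most abundant protein of high density lipoprotein (HDL), differed most between pups. In G1 the males had 13.94, 13.65 and 13.45 and the females 13.07, 12.56 and 12.73. In G2 the males had 13.67, 13.32 and 13.84 and the females 13.89, 13.76 and 12.91, and in G3 the males had 12.80, 13.80 and 13.97 and the females 12.54, 13.64 and 13.87. Low pups, at or below 13.07, were found in all 3 groups, 3 in G1, 1 in G2 and 2 in G3, and the highest pup of each group lay between 13.89 and 13.97. From the lowest to the highest of the 18 pups the range was 1.44, a 2.71-fold difference in the deposited signal. The SD within groups was 0.519. Of 115 probes with a mean within 0.25 of Apoa2, 3 had a larger one (2.61%), and their median was 0.162.

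Apoa5, a minor plasma protein that raises the clearance of triglyceride-rich particles, also varied more than most probes of its level. G1 pups had 13.74, 13.10, 14.03, 13.32, 14.07 and 13.85, G2 pups 13.56, 13.59, 13.53, 13.78, 13.73 and 13.80, and G3 pups 13.66, 13.56, 13.79, 13.19, 14.16 and 13.88, the first 3 of each being males. All G2 values lay within the ranges of G1 and G3, which overlapped. The range over 18 pups was 1.06, or 2.08-fold, and the SD within groups 0.303, against a median of 0.178 in 113 probes of like level, of which 9 (7.96%) had a larger SD. By contrast Apoh, Apoe, Apoc1 and Apoc2, with SDs of 0.0841, 0.0946, 0.0973 and 0.120, sat near the medians of probes of their own level (0.0950, 0.0934, 0.0940 and 0.131).

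The probe for Apob was near the lower end of the scale. It read 7.71 to 7.76 in G1, 7.70 to 7.77 in G2 and 7.69 to 7.75 in G3, below the array median on all 18 arrays, and 11.6% of the probes had a lower mean. The liver is a main source of Apob, but its probe lay among the dimmer probes of every array, and no level of Apob mRNA is read from it here. Its SD within groups was 0.0219, against a median of 0.0280 for probes of like level. Its tests are counted with the others below.

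**Figure D2:**
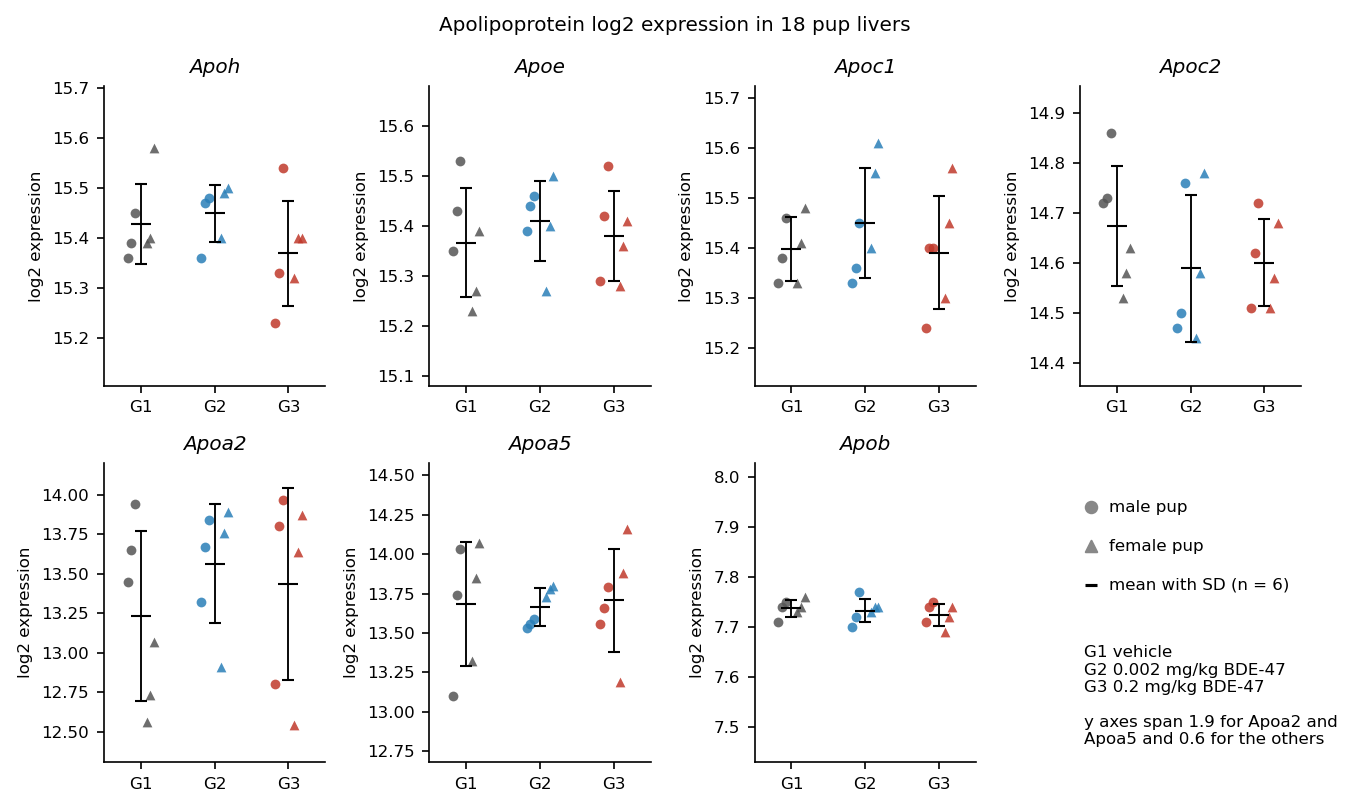
Log2 expression of 7 apolipoproteins in each pup (circles male, triangles female) by group, with the mean and SD (n = 6). Apoa2 spans 12.54 to 13.97 and Apoa5 13.10 to 14.16 with all groups mixed, Apoh, Apoe and Apoc1 stay between 15.23 and 15.61, and Apob stays between 7.69 and 7.77.

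**Figure D3:**
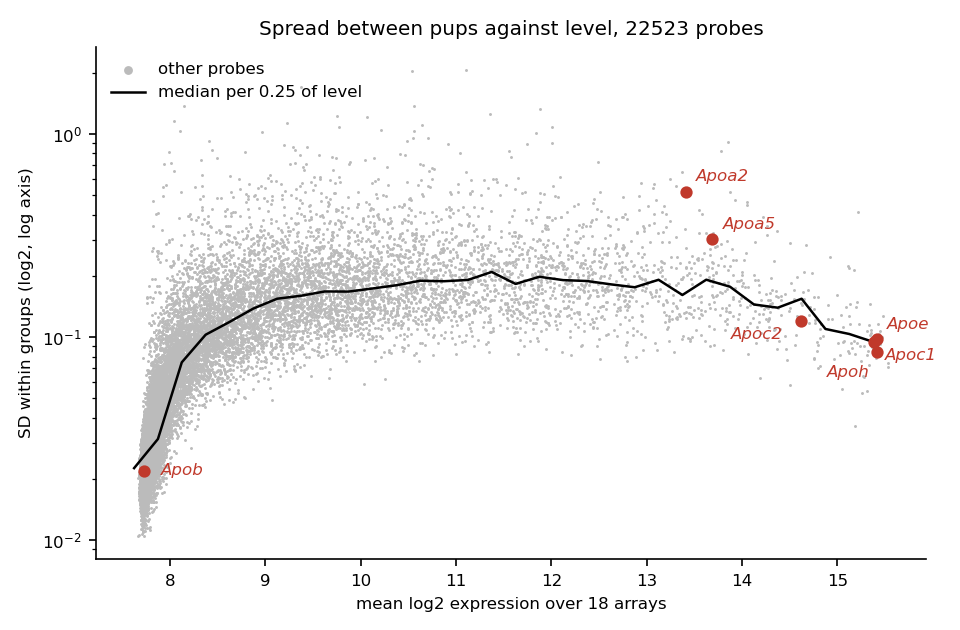
SD within groups (log axis) against mean log2 expression for 22523 probes (grey), with the median per 0.25 of level (line) and the 7 apolipoproteins (red). Apoa2 (0.519) and Apoa5 (0.303) lie above the line, and the 3 brightest lie on its falling right end.

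The first comparison asked whether the lower dose changed the level of an apolipoprotein. In limma, with p-values adjusted over all 22523 probes, 0 of the 7 passed an adjusted p of 0.05 between G2 and G1, and 0 reached an unadjusted p of 0.05. In the same comparison 0.0133% of all probes passed the adjusted p, 0.00888% did so with a change of at least 2-fold, and 9.98% reached the unadjusted p. The estimates were higher in G2 for 4 and lower for 3, with a median of 0.02 on the log2 scale (-0.0015 over all probes). Adjusted p-values ran from 0.667 to 0.980. The largest estimate was that of Apoa2, 0.33 (standard error 0.25, 95% interval -0.22 to 0.89, adjusted p = 0.667 from limma), an interval that spans 0.86-fold to 1.85-fold. Apoc2 was estimated at -0.08 (-0.24 to 0.07) and Apoa5 at -0.02 (-0.37 to 0.33). The 3 at the top of the scale were estimated at 0.05 for Apoe (-0.07 to 0.16), 0.05 for Apoc1 (-0.06 to 0.16) and 0.02 for Apoh (-0.06 to 0.11).

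At the higher dose the outcome was alike in count. Between G3 and G1, 0 of 7 passed the adjusted p in limma and 0 reached an unadjusted p of 0.05, where 0.0799% of all probes passed, 0.00444% with 2-fold, and 18.6% reached the unadjusted p. Estimates were higher for 3 and lower for 4, with a median of -0.01 (-0.0033 over all probes) and adjusted p-values of 0.544 to 0.973. Apoa2 was estimated at 0.20 (standard error 0.31, -0.48 to 0.89, adjusted p = 0.776). Apoc2 had the lowest adjusted p, 0.544, at -0.07 (standard error 0.06, -0.20 to 0.05). Apoh was estimated at -0.06 (-0.17 to 0.05), Apoe at 0.02 (-0.10 to 0.14), Apoc1 at -0.01 (-0.12 to 0.10) and Apoa5 at 0.02 (-0.41 to 0.45). Without G3 replicate 2, the pup with muscle transcripts, the 7 estimates ran from -0.09 for Apoh (adjusted p = 0.294) to 0.13 for Apoa2 (adjusted p = 0.875), and none passed.

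Between the doses, G3 against G2, 0 of 7 passed in limma and 0 reached the unadjusted p, against 0.0178% and 9.47% of all probes. Apoh was lower in G3 by an estimate of -0.08 (-0.18 to 0.02, adjusted p = 0.627), and Apoa2 by -0.13 (-0.73 to 0.47, adjusted p = 0.909). The 3 comparisons share their groups and are not independent of each other. An F-test over the 3 groups gave adjusted p-values of 0.548 to 0.991 for the 7, with 0 past it and 0 at an unadjusted p of 0.05, where 0.186% of all probes passed and 17.0% reached the unadjusted p. Exact two-sided permutation of 6 pups against 6 gave p from 0.139 to 0.931 over the 21 tests of a member and a pair of groups, where 0.00216 is the smallest p that 924 arrangements allow. In none of the 21 did the groups separate without overlap, and over all probes 0.448% (G2 and G1), 1.95% (G3 and G1) and 0.608% (G3 and G2) did so. For Apoa2, Apoa5 and Apoc2 all 95% intervals lay within 2-fold in either direction, the widest for Apoa2, from -0.73 to 0.47 between the doses and up to 0.89 against G1. Those of Apoh, Apoe and Apoc1 at the top of the scale and of Apob near its low end were narrower. The top of the scale leaves little room for a rise, and whether it hides a fall was not tested. The intervals of these 4 probes are therefore not read as limits on a change of the mRNA. Smaller changes of Apoa2 and Apoa5 were not resolved with 6 pups a group. These intervals and p-values rest on the deposited scale and on pups taken as independent.

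**Figure D4:**
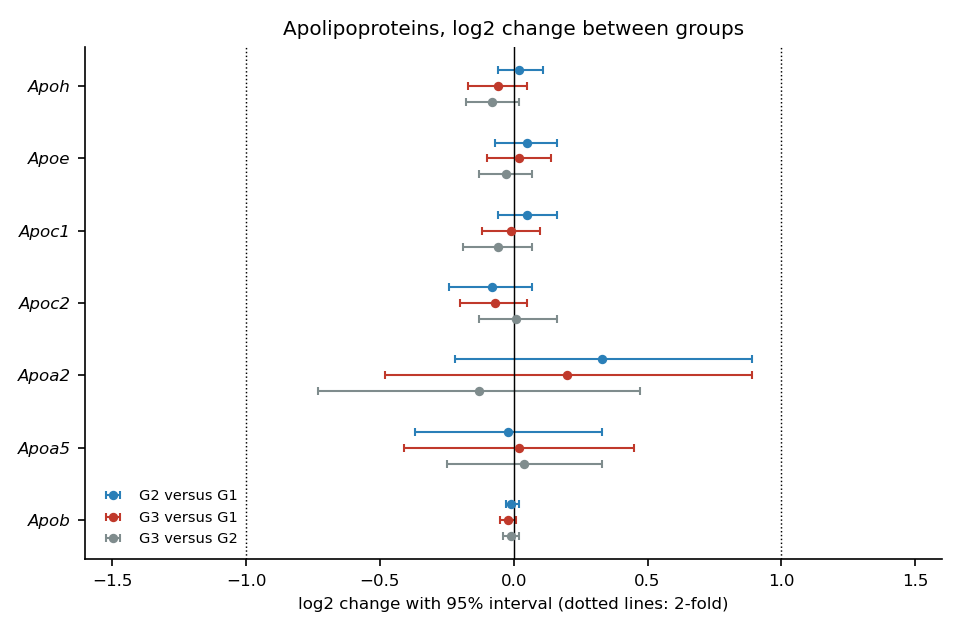
Log2 change of the 7 apolipoproteins between groups with 95% intervals from limma (n = 6 per group; dotted lines at 2-fold). All 21 intervals include 0, and those of Apoa2 are the widest, up to 0.89. Those of Apoh, Apoe, Apoc1 and Apob come from the ends of the scale, where the spread between pups was smaller.

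Male and female pups were compared over all 18 arrays. In limma 0 of 7 apolipoproteins passed an adjusted p of 0.05 and 0 reached an unadjusted p of 0.05, with 0.00444% and 5.06% of all probes doing so, and adjusted p-values were 0.899 to 0.996. Apoa2 was 13.60 ± 0.37 in 9 males and 13.22 ± 0.57 in 9 females (SD), a difference of -0.39 for females against males (standard error 0.22, -0.85 to 0.08). Apoe differed by -0.08 (standard error 0.04, -0.16 to 0.00) and Apoc1 by 0.08 (standard error 0.04, 0.00 to 0.17), with unadjusted p of 0.0565 and 0.0590 in limma and adjusted p of 0.899 for both. Apoa5 was 13.62 ± 0.25 in males and 13.75 ± 0.32 in females. Looked at by sex within each group, 3 of 21 sets of a member and a group had males and females apart: for Apoa2 and Apoc2 all 3 males of G1 were above its 3 females, and for Apoa5 all 3 females of G2 were above its 3 males. Over all probes the sexes were apart for 9.43% in G1, 8.34% in G2 and 10.2% in G3, and nothing is read from the 3 among the members. These splits were noticed in the values. Whether the effect of a dose differed by sex was tested by an interaction term. It gave 0.81 for Apoa2 in G2 (standard error 0.53, -0.33 to 1.94) and 0.72 in G3 (-0.41 to 1.85). A difference of over 2-fold between the sexes in the change from G1 could therefore not be resolved. None of the 7 passed or reached an unadjusted p of 0.05 in limma for either dose, where 0% and 0.00444% of all probes passed the adjusted p and 3.92% and 4.16% reached the unadjusted p. A litter gave a pup of each sex, and this link could not be used in the fit.

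The neighbours on chromosome 1 were set against each other over the 18 pups, after removing the mean of each group. Apoc1 and Apoc2 had Pearson's r of -0.49 and Spearman's rho of -0.52 (two-sided permutation p = 0.0564 and 0.0376, adjusted over the 3 pairs 0.169 and 0.113). The sign was negative in each group, at -0.48, -0.37 and -0.76 in G1, G2 and G3, and r was -0.58 without the 2 pups farthest from the median of Apoc1. Apoe and Apoc1 had r = 0.23 and rho = 0.14 (permutation p = 0.359 and 0.595, adjusted 0.384 and 0.595), with -0.20, 0.36 and 0.45 by group and 0.25 without the 2 farthest pups. Apoe and Apoc2 had r = -0.23 and rho = -0.19 (permutation p = 0.384 and 0.482, adjusted 0.384 and 0.595), with 0.50, -0.63 and -0.81 by group and -0.18 without the 2 farthest. No pair passed the adjustment. Apoe and Apoc1 varied within the narrow top of the scale, and littermates among the pups are not independent.

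The other genes of lipoprotein metabolism were counted from 7 lists of 78 genes, of which 60 had a named probe and 9 of these had a mean below 8, near the low end. Of all probes 64.9% had a mean of 7 to 8, so the shares over all probes given here are not matched for level. Whether level accounts for a difference in share was not tested. None of the 60 passed the adjusted p in limma in any comparison of 2 groups. At an unadjusted p of 0.05, 8 were higher and 1 lower in G2 than in G1, or 15.0% of the 60, where 4.40% of all probes were higher and 5.59% lower. In G3 9 were higher and 8 lower, or 28.3%, where 8.59% of all probes were higher and 9.98% lower. Between the doses 3 were higher and 3 lower, or 10.0%, with 4.18% and 5.29% of all probes. The median changes of the 60 were 0.01, 0.02 and 0.00.

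By role, the lists were alike in having no member past the adjusted p. Of 8 other apolipoproteins and HDL proteins, 1 was lower in G2 at the unadjusted p, and in G3 1 was higher and 2 were lower. Apom, which carries sphingosine 1-phosphate on HDL, was 12.53 ± 0.15 in G1, 12.34 ± 0.24 in G2 and 12.29 ± 0.04 in G3 (SD, n = 6), and the estimate for G3 was -0.24 (standard error 0.06, adjusted p = 0.0876 in limma). Without G1 replicate 6 it was -0.26 and passed (adjusted p = 0.0410). The fit without this pup also gave the lowest adjusted p of 22 alternatives for Abca1, Nr1h4 and Ppara at both doses. None of those passed. Apof, known in humans as an inhibitor of lipid transfer, spread over 2.15 on the log2 scale (10.26 to 12.41), with medians of 10.57, 10.58 and 10.42 in G1, G2 and G3. The values 12.41 and 12.20 in G1 (replicates 1 and 4) and 12.11 in G2 (replicate 5) stood above all other pups, which ran from 10.26 to 10.72. Its estimate for G3 was -0.66 (-1.46 to 0.14, adjusted p = 0.363), and it was -0.40 without G1 replicate 1 and -0.44 without G1 replicate 4. Each of these fits kept the other high pup of G1, and none left out both. The remaining pups of G1 had 10.39 to 10.64, within the range of G3 (10.26 to 10.67). Clu, or apolipoprotein J, was estimated at 0.07 in G2 and 0.13 in G3 (adjusted p = 0.824 and 0.531).

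Of 13 genes for the assembly and secretion of Apob particles, 1 was higher in G2 at the unadjusted p, and in G3 2 were higher and 1 lower. Mttp, which loads lipid onto nascent Apob, was estimated at -0.18 in G2 and -0.25 in G3 (standard errors 0.13 and 0.12, adjusted p = 0.658 and 0.286). Without G1 replicate 3 these were -0.09 and -0.16, and without G2 replicate 1 that for G2 was -0.12. Of 4 genes for the editing of Apob mRNA, 1 was higher at the unadjusted p for each dose. Apobec1, the editing enzyme itself, which in the rat acts in liver as well as intestine, was at 8.68, 8.68 and 8.70 in the 3 groups, with estimates of 0.00 (-0.17 to 0.17) and 0.02 (-0.24 to 0.28).

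Among 7 genes for remodelling in plasma, 1 was higher in G2 at the unadjusted p and 0 differed in G3. Lcat, which esterifies the cholesterol of HDL, was estimated at 0.00 and -0.07, and Lipc, hepatic lipase, at 0.00 and 0.07. Of 8 receptors and uptake genes, 0 reached the unadjusted p in G2, and in G3 1 was higher and 1 lower. Scarb1, the HDL receptor, was estimated at 0.00 in G2 and -0.17 in G3 (standard error 0.08, adjusted p = 0.301). Of 5 cholesterol exporters, 2 were higher in G2 and 1 in G3. Abca1, which loads lipid onto apolipoprotein A-I, was estimated at 0.30 (standard error 0.12, adjusted p = 0.488) and 0.20 (adjusted p = 0.392). Of 15 transcription factors, 3 were higher in G2, and 3 were higher and 4 lower in G3. Hnf4a, which binds many apolipoprotein promoters, was estimated at 0.13 and 0.17 (standard error 0.06 for both, adjusted p = 0.510 and 0.189), from a probe at 8.06 in G1. The bile acid receptor Nr1h4 was estimated at 0.22 and 0.08, and Ppara, a fatty acid sensor, at 0.03 and 0.10. Alb, a liver mRNA used as a reference for hepatocyte output, was estimated at 0.00 and -0.04, from the brighter of 2 probes. That probe ranked 1 to 12 over the 18 arrays, at the top of the scale, and no limit on a change of its mRNA is read from it. No named probe was found for Apoc4, Apod or Lrp1.

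The 5 genes of these lists with an adjusted p below 0.1 against G1 were singled out after their values had been seen. They were Apom, given above, and Apon, Sar1b, Abcb4 and Mylip. Apon, an HDL apolipoprotein of rodents, was 11.28 ± 0.47 in G1, 11.68 ± 0.20 in G2 and 12.01 ± 0.20 in G3 (SD, n = 6). All pups of G3 (11.78 to 12.27) were above the highest of G1 (11.74), and these 2 groups did not overlap for 1.95% of all probes. The estimate for G3 was 0.72 (0.30 to 1.15, adjusted p = 0.0970 in limma), and 0.81 without G1 replicate 6, where it passed (adjusted p = 0.0349). Sar1b, a small GTPase of the vesicles that carry lipoproteins out of the endoplasmic reticulum, was 10.36 ± 0.29, 10.84 ± 0.24 and 10.88 ± 0.13. Its estimate for G3 was 0.52 (0.26 to 0.79, adjusted p = 0.0773), and 0.61 without G1 replicate 6 (adjusted p = 0.0122). That pup had the highest G1 values of Apon and Sar1b, 11.74 and 10.80, so leaving it out lowers the G1 mean of both. Abcb4, which moves phosphatidylcholine into bile, has 2 named probes, of which only the brighter was used here. It was 9.38 ± 0.17, 9.99 ± 0.15 and 9.88 ± 0.33. In G2 all 6 pups (9.85 to 10.27) were above all of G1 (9.06 to 9.51), where 0.448% of all probes did not overlap. Its estimate was 0.61 (0.41 to 0.80, adjusted p = 0.0975). The part of the lower erythroid markers of G2 in the values of Abcb4 and Sar1b was not tested. Mylip, a ubiquitin ligase, was estimated at 0.05 in G3 (adjusted p = 0.0832), from a probe near the low end of the scale with a mean of 7.72. None of them passed on all arrays with the fit used for every gene here. Without G3 replicate 2 the estimates for G3 were -0.24 for Apom, 0.77 for Apon, 0.54 for Sar1b and 0.45 for Abcb4. None of these passed (adjusted p = 0.127, 0.122, 0.110 and 0.164 in limma, in the same order).

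**Figure D5:**
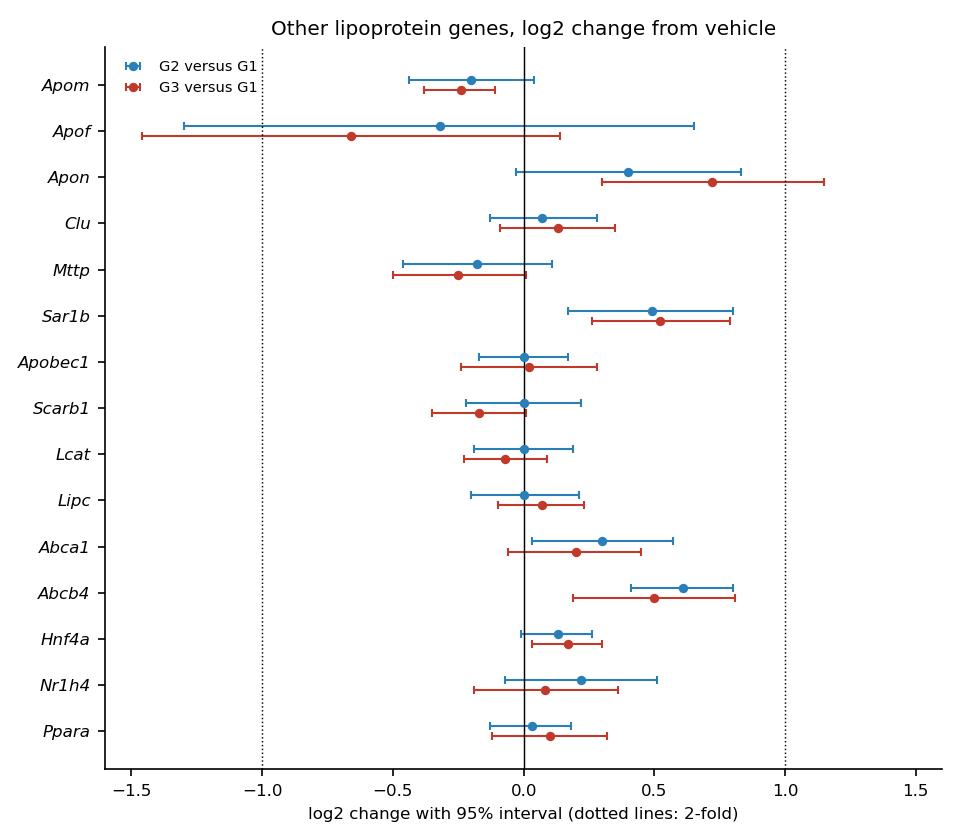
Log2 change from vehicle of 15 other lipoprotein genes in G2 and G3 with 95% intervals from limma (n = 6 per group; dotted lines at 2-fold). None passed the adjusted p; the intervals lie above 0 for Sar1b and Abcb4 at both doses, for Abca1 in G2, and for Apon and Hnf4a in G3, that of Apom in G3 lies below 0, and all others shown include 0.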

How the data were processed

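Log2 expression values were used as deposited. The authors had made them from scanner intensities with the lumi package in FlexArray. The version of lumi, its background step and its kind of normalization were not given in the sources used here. Probes were named through GEO's platform annotation and RefSeq for GRCr8, where 13752 of 13793 probes with 1 symbol were found, and 8730 probes carry no single symbol. The brightest probe stood for a gene with several. Groups were compared in pairs on 12 arrays with limma 3.58.1 in R 4.3.3 (lmFit and eBayes, two-sided, sexes pooled, no covariate, no filter), with Benjamini-Hochberg adjustment over all probes. The F-test, the test of sex and the interaction used 18 arrays. The limma script was tested on simulated data. Exact permutation tests used numpy 2.4.6. Correlations used 100000 permutations, with scipy 1.17.1 for Spearman's rho and for the adjustment over pairs. The spread of a gene was set against probes within 0.25 of its mean. The number of arrays limits the precision.

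The members and lists were chosen with earlier results of these data known. Named genes were the 10 members and 19 genes of the other lists, where they had a probe, and genes named outside this rule are marked; some items are not reported here. The alternatives were all 3 groups fitted together, a variance prior that follows expression, dim probes left out, quantile normalization, median centring, sex as covariate, array weights (statmod 1.5.0), the replicate number as a block, 1 sex alone, and each pup left out. The replicate numbers were checked and did not pair pups across groups. Nothing in the labels says that pups of a group came from separate litters beyond the 3 dams.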

Additional observations from a re-analysis of the deposited data

How the results depend on the processing

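In no alternative did a member pass the adjusted p of 0.05 in limma. Over 28 alternatives and 1043 fits of a member the lowest adjusted p was 0.255, and in the pair comparisons 0.527 (G2 against G1), 0.294 (G3 against G1, Apoh without G3 replicate 2) and 0.387 (G3 against G2). The median change of the members with each pup left out ran from 0.01 to 0.05, -0.04 to 0.00 and -0.06 to -0.01 in the same order. With the replicate block 0 members passed in each comparison and the median for G2 was 0.02. Same-numbered pups correlated from -0.33 to 0.22, over 0.1 in 2 of 18 pairs, so the numbers were not taken as pairs, and the block changed no call. Each member had 1 probe, so a dimmer probe could not be tried, and 6 of 9 cluster pairs could not be measured.

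The signs that turned were those of estimates that passed nowhere. For G2 against G1, in males alone, Apoa2 was -0.07, Apoc1 -0.01, Apoe 0.00, Apobec1 0.04, Scarb1 0.02, Lcat 0.01, Lipc -0.03 and Alb 0.06, and in females alone Apoa5 was 0.02, Apoc2 0.02 and Ppara -0.07. Quantile normalization gave 0.00 for Apobec1, 0.02 for Lcat and -0.01 for Lipc, and array weights -0.02 for Lipc. For G3 against G1, in males alone, Apoa2 was -0.16, Apoe -0.02 and Lcat 0.01, and in females alone Apoa5 was -0.01, Apoc1 0.03, Apoc2 0.00, Abca1 -0.02, Nr1h4 -0.07 and Ppara -0.03. Array weights gave -0.05 for Apoa5 and quantile normalization 0.00 for Alb. For G3 against G2, Apoa5 was -0.03 and Apoc2 -0.02 in females, Apob 0.00 in males, and Apoe 0.00 after quantile normalization. The cause was not tested.

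With each pup left out, the ranges that crossed 0 were, for G2 against G1, -0.14 to 0.06 for Apoa5, -0.01 to 0.00 for Apob, -0.01 to 0.11 for Clu, -0.05 to 0.03 for Apobec1, -0.06 to 0.06 for Scarb1, -0.06 to 0.04 for Lcat, -0.06 to 0.05 for Lipc and -0.02 to 0.03 for Alb. For G3 against G1 they were -0.10 to 0.12 for Apoa5, -0.04 to 0.02 for Apoc1, -0.01 to 0.05 for Apoe and -0.05 to 0.09 for Apobec1. For G3 against G2 they were -0.26 to 0.05 for Apoa2, -0.05 to 0.14 for Apoa5 and -0.02 to 0.05 for Apoc2. The estimate of Apoa2 against G1 kept its sign, at 0.20 to 0.48 in G2 and 0.07 to 0.38 in G3. Abcb4 in G2 passed with a variance prior that follows expression (adjusted p = 0.0410) and without dim probes (0.0395). In G3 Sar1b passed without dim probes (0.0449), with array weights (0.0408) and with 3 groups fitted together (0.0458), and Apon with 3 groups fitted together (0.0438). With the fits that leave out G1 replicate 6 counted, Sar1b passed in 4 of 22 alternatives in G3, Apon in 2 and Apom in 1. Abcb4 passed in 2 of 22 in G2. Their highest adjusted p in limma was 0.612, 0.596, 0.627 and 0.743, in that order.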
